A study of Mus musculus with 2 samples.

Results

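Expression of cadherins, protocadherins and catenins was described in 2 single cells of CD1 mice, an albino outbred strain, 1 taken at embryonic day 12.5 (E12.5) and 1 on the day of birth (postnatal day 0, P0). Members were the probe sets whose single gene symbol in the array's annotation named a cadherin (Cdh followed by a digit), a protocadherin (Pcdh), a catenin or catenin-related protein (Ctnn), Fat1 to Fat4, a Celsr gene, a desmocollin (Dsc) or a desmoglein (Dsg). This gave 144 probe sets for 78 genes, among 34958 probe sets for 18194 genes with 1 symbol and 45101 probe sets on the array. The rule reads gene symbols and uses no measured value.

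Both cells came from untreated retina dissociated with papain and were picked by capillary. They share strain, tissue, amplification and array. Their labels differ in age, which cannot be told apart here from any other difference between the 2 cells. The submitters assigned them to the developing ciliary body, the folded epithelium behind the iris that arises at the rim of the optic cup, from their expression after the arrays were read. Each age is therefore 1 cell on 1 array: "at E12.5" and "at P0" below mean these 2 cells, and a difference between them has no replicate check and carries no p-value or standard error.

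Cadherins are calcium-dependent adhesion receptors of the cell surface. Classical cadherins bind like molecules on the next cell, and inside the cell their tails bind beta-catenin and p120 catenin, with alpha-catenin linking beta-catenin to actin. Beta-catenin is also the nuclear effector of Wnt signalling, a pathway known for its role at the optic cup rim. Protocadherins are mostly neuronal recognition molecules, Celsr and Fat proteins are giant cadherins of planar polarity and growth control, and desmocollins and desmogleins build the desmosomes of stratified epithelia and heart.

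Values are MAS5 signals on a linear scale. As background limit each array took the 99th percentile over 194 probe sets of genes not known to act in the eye, such as olfactory receptors and keratin-associated proteins: 243 at E12.5 and 344 at P0. Each gene was represented by the probe set whose log2 signals in the cells had the highest mean. A gene was called higher in 1 cell at a ratio of 4 or more with the brighter signal above its limit, signals under a limit being first raised to it, so that a fold with 1 side below background is a lower bound ("at least"). Log2 ratios (P0 over E12.5) differed between probe sets of the same gene with an SD of 0.83, from 981 genes above the limit in both cells. This SD measures disagreement between probe sets of a gene in the same cDNA and contains no variation between cells. Signals of different probe sets are not compared as levels. Arrays give no read depth, and their number limits the precision.

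Markers of the labelled tissue were present in part. The cells were assigned from their expression on these same arrays, so marker counts are no independent check of the assignment. Of all named genes, 30.6% were above the limit at E12.5 and 28.4% at P0. Of 17 ciliary margin genes, 10 were above the limit at E12.5 and 9 at P0, and Msx1, Msx2, Bmp4, Mitf and Wnt2b were above it in neither. Of 11 measured retinal progenitor genes, 10 and 9 were above it. No gene of the photoreceptor (9 measured), lens and surface ectoderm (10) or microglia (8) lists was above the limit in either cell. In the E12.5 cell 1 of 9 ganglion cell genes and 2 of 10 pigment cell genes exceeded the limit, against 0 and 0 at P0. In the P0 cell 2 of 9 mesenchyme and neural crest genes and 1 of 8 vascular and blood genes did, against 0 and 0 at E12.5.

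Adhesion genes of these families were sparsely represented, and the counts were uneven between families. Of the 144 probe sets, 22 at E12.5 and 23 at P0 were above background, against 24.3% and 22.4% of all probe sets with 1 symbol. In each cell 14 of 78 genes (17.9%) were above background, where 30.6% and 28.4% of all named genes were at E12.5 and P0, and 11 genes (14.1%, against 18.8% of all) were above it in both. Classical cadherins stood at 5 of 16 genes (31.25%) in each cell. Catenins with catenin-related proteins stood at 6 of 9 (66.7%) at E12.5 and 5 of 9 (55.6%) at P0. Protocadherins, 35 of the 78 genes, contributed 1 gene at E12.5 and 0 at P0. Without protocadherins and desmosomal cadherins, 13 of 37 members (35.1%) were above background at E12.5 and 14 (37.8%) at P0. The groups left out had almost no gene above background in these same data, so leaving them out raised both shares. That these exceed the shares of all named genes is therefore no result about the members. In all, 61 of the 78 genes (78.2%) were above the limit in neither cell, against 59.8% of all named genes.

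**Figure D1:**
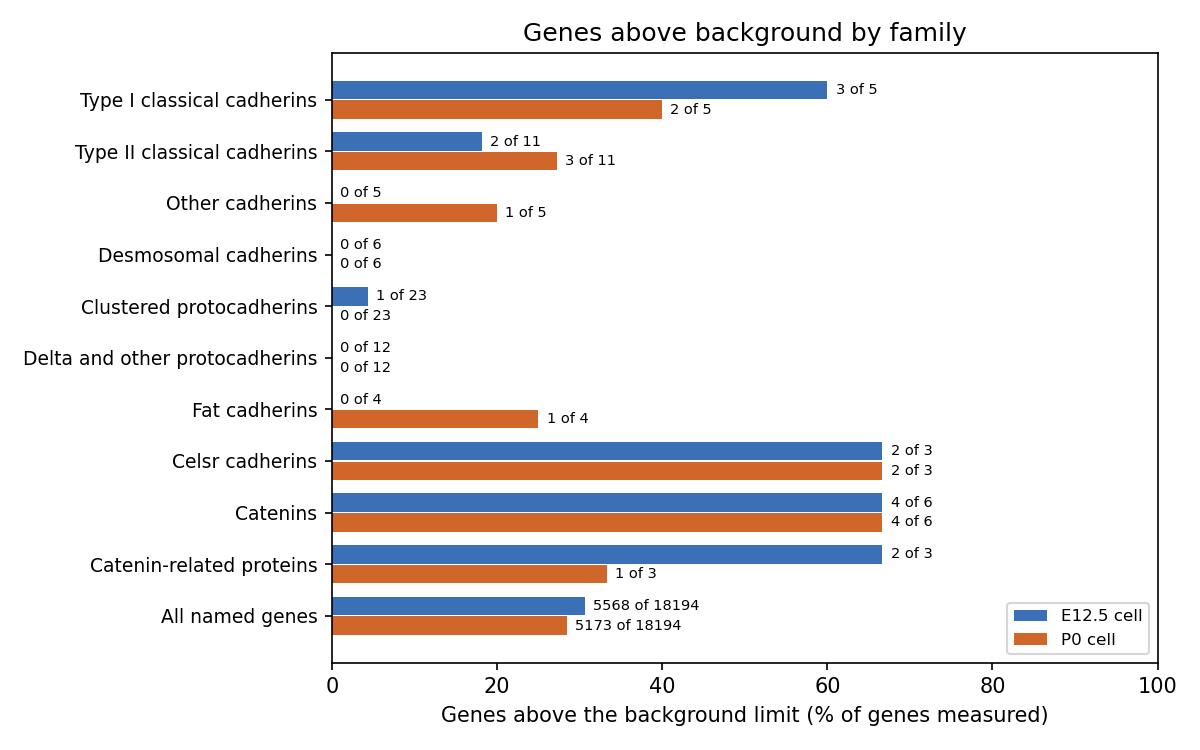
Share of genes above the background limit (percent of genes measured, horizontal axis) in each family, with the E12.5 cell in blue and the P0 cell in orange and all named genes in the bottom pair of bars. Celsr genes and catenins stood at 2 of 3 and 4 of 6 in both cells, while the desmosomal and the delta and other protocadherin families stood at 0.

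N-cadherin and P-cadherin were the classical type I cadherins above background in both cells. Cdh2 encodes N-cadherin, the main cadherin of the neuroepithelium, and its brighter probe set read 4499 at E12.5 and 3271 at P0, a log2 ratio of -0.46. A second probe set gave 2344 at E12.5 and 197 at P0, at least 6.81-fold higher at E12.5. Both probe sets were thus higher at E12.5, but the size of the difference depended on which was read: the first lay within the SD between probe sets and the second was far outside it.

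Cdh3 encodes P-cadherin, an epithelial cadherin also found in pigment epithelium. Its signal was 1927 at E12.5 and 1674 at P0, a log2 ratio of -0.20, with a second probe set at 7.26 and 52.1, below background in both. Trpm1 and Rab38, from the pigment cell list, exceeded the limit at E12.5 and were below it at P0. The other 8 of the 10, Tyr, Tyrp1, Dct and Pmel among them, were below it in both cells. A link between Cdh3 and these markers was not tested. The neighbour of Cdh3 on mouse chromosome 8 is Cdh1, with 0 protein-coding genes between them in the GRCm38.p6 annotation. Cdh1 encodes E-cadherin, the cadherin of surface ectoderm and most epithelia, and its probe set read 2.94 at E12.5 and 4.25 at P0, below the limit in both.

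Cdh4, encoding R-cadherin of the retina, had a signal of 1349 at E12.5 and 8.56 at P0, at least 3.92-fold higher at E12.5 and short of a call. The 2 further probe sets of Cdh4 were below background in both cells, the brighter reaching 60.9 and 10.3. M-cadherin (Cdh15), a cadherin of muscle, was below the limit with 171 and 147.

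Among the 11 type II cadherins measured, Cdh6 and Cdh11 were above background in both cells and Cdh19 at P0. Cdh6, known as K-cadherin from kidney, had 2982 at E12.5 and 1076 at P0, 2.77-fold higher at E12.5. Its second probe set gave 242 and 23.4, with the E12.5 value just under the limit of 243. Cdh11, encoding the mesenchyme-associated OB-cadherin, went the other way, with 1636 at E12.5 and 4327 at P0, a 2.65-fold difference. Its second probe set had 333 and 1.15, above background at E12.5, but with 333 under the P0 limit of 344 it gave no direction. When the probe sets of a gene were averaged, the log2 ratio of Cdh11 turned from 1.40 to -1.10. The value of 1.15 pulled the averaged P0 signal below background, so this turn gives no direction either.

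Cdh19, a cadherin known from Schwann cell precursors of the neural crest, had a signal of 2.84 at E12.5 and 1481 at P0, at least 6.10-fold higher at P0, from its only probe set. Some mesenchyme and neural crest markers lay on the same side: Col1a2 was at 6.0 at E12.5 and 2653 at P0, and Pdgfra at 63.0 and 3088. At P0, 0 of 2 further probe sets of Col1a2 were above the limit, and 1 of 2 of Pdgfra was above it and also called. The other 7 of the 9 genes measured, including Col1a1, Col3a1, Twist1 and Foxc1, were below the limit in both cells. The part of such cells in the signals of Cdh11 and Cdh19 was not tested.

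The type II cadherins Cdh5, Cdh7, Cdh8, Cdh9, Cdh10, Cdh18, Cdh20 and Cdh22 were below background in both cells. Cdh5 encodes VE-cadherin of blood vessels and read 65.4 and 193 on its brighter probe set. Cdh13 encodes T-cadherin, which is held to the membrane by a lipid anchor and lacks the tail that binds catenins. It had 49.4 at E12.5 and 753 at P0, at least 3.10-fold higher at P0. Of its 3 further probe sets, 1 gave 1.61 and 1291, which is at least 5.32-fold, 1 gave 58.8 and 433, and the last was below background in both cells. Every Cdh13 probe set above the limit was above it at P0 alone. The other 4 genes of the mixed group, Cdh16, Cdh17, Cdh23 and Cdh26, were below background.

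**Figure D2:**
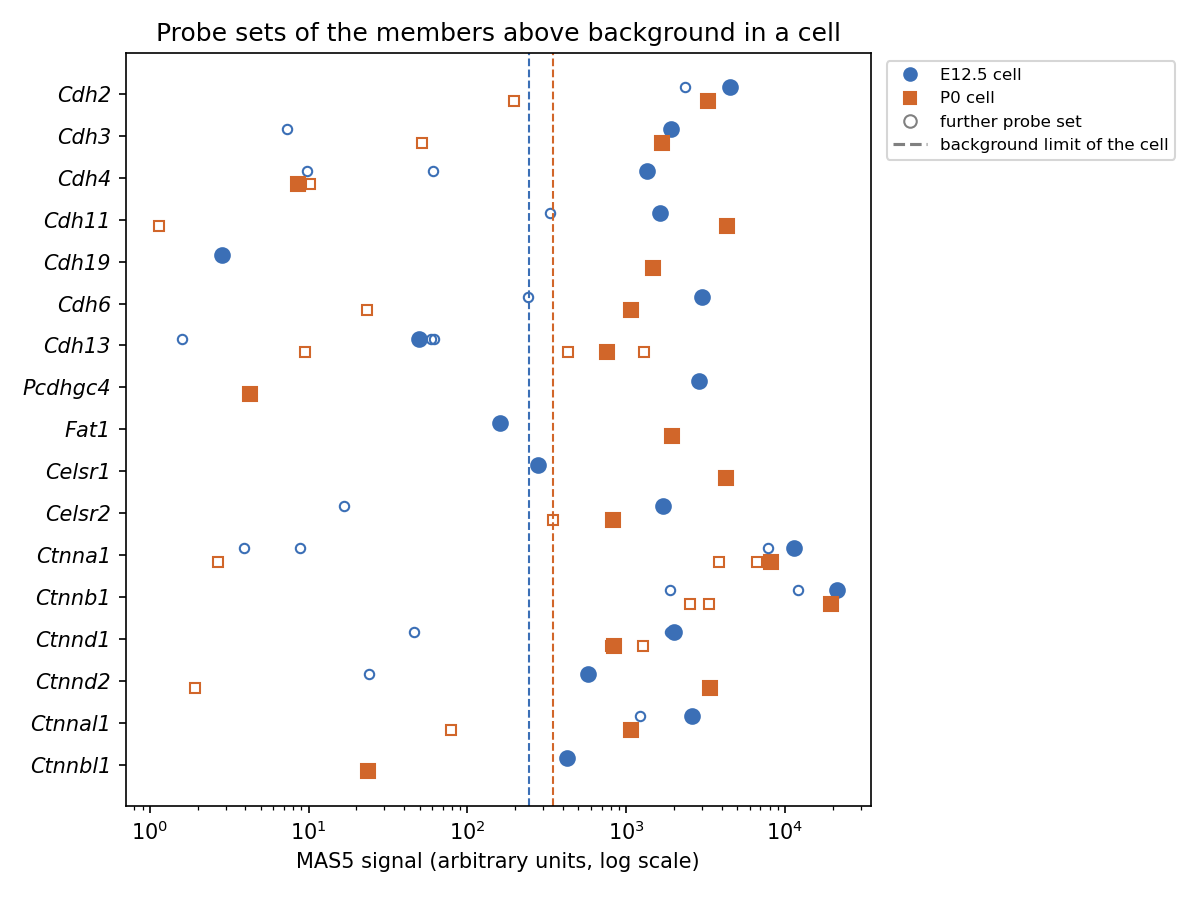
MAS5 signals (arbitrary units, log axis) of every probe set of the 17 members above background in at least 1 cell, with blue circles for the E12.5 cell, orange squares for the P0 cell, filled symbols for the probe set that represents the gene, open symbols for further probe sets, and dashed lines for the limits of 243 and 344. Cdh19, Cdh13 and Fat1 have their filled E12.5 symbols left of the limit, and Cdh4, Pcdhgc4 and Ctnnbl1 their filled P0 symbols.

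The catenins that complete a cadherin complex were above background in both cells. Beta-catenin (Ctnnb1) had 21287 at E12.5 and 19377 at P0 on the brightest probe set, a log2 ratio of -0.14. Its second probe set had 12147 and 2524, 4.81-fold higher at E12.5. The third had 1877 and 3329, 1.77-fold higher at P0. All 3 probe sets put Ctnnb1 above the limit in both cells, and they did not agree on a direction.

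Alpha-catenin of epithelia (Ctnna1), the link to actin, had 11431 at E12.5 and 8162 at P0, a log2 ratio of -0.49, and a second probe set gave 7795 and 6679. The third had 8.86 and 3828, at least 15.8-fold higher at P0, and the fourth was below background in both. The neural and heart forms Ctnna2 (3.42 and 12.9) and Ctnna3 (81.3 and 7.50) were below the limit in both cells. Of the alpha-catenins, the epithelial form was thus the one above background.

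The p120 family regulates how long cadherins stay at the surface. Ctnnd1, p120 catenin, had 2004 at E12.5 and 834 at P0, a 2.40-fold difference, and a second probe set gave 1886 and 799. The third went the other way with 46.4 and 1273, at least 5.24-fold higher at P0. Ctnnd2, delta-catenin, known mainly from neural cells, had 574 at E12.5 and 3367 at P0 and was called 5.87-fold higher at P0. Its second probe set was below background in both cells, at 24 and 1.91.

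Among the catenin-related genes, Ctnnal1 (alpha-catulin, a relative of alpha-catenin and vinculin) had 2589 at E12.5 and 1072 at P0, and 1229 and 79.4 on its second probe set, higher at E12.5 on both. Ctnnbl1, a nuclear protein of the spliceosome despite its name, had 427 and 23.6, at least 1.24-fold higher at E12.5. Ctnnbip1 encodes ICAT, which keeps beta-catenin from binding TCF factors. It counts as below background because its representing probe set read 108 and 309, but its other probe set had 1339 at E12.5 and 9.88 at P0, at least 3.89-fold higher at E12.5. It was the 1 gene of the 61 below background for which another probe set was above a limit.

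To show what lies upstream of catenin genes above background in both cells, the 250 bases before the start of Ctnnb1 (chr9:120933150-120933399, plus strand), Ctnnd1 (chr2:84658978-84659227, minus strand) and Ctnnd2 (chr15:30172284-30172533, plus strand) are printed from RefSeq, build GRCm38.p6, 5′ to 3′. The window of Cdh15 (chr8:122848124-122848373, plus strand), a classical cadherin below background in both cells, stands beside them. Capitals mark each CG, the dinucleotide that is dense in CpG island promoters.
Ctnnb1: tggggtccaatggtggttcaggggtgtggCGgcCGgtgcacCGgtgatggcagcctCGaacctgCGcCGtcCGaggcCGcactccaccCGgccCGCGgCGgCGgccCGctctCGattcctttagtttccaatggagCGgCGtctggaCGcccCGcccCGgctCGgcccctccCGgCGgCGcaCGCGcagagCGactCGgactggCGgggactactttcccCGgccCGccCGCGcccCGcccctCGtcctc
Ctnnd1: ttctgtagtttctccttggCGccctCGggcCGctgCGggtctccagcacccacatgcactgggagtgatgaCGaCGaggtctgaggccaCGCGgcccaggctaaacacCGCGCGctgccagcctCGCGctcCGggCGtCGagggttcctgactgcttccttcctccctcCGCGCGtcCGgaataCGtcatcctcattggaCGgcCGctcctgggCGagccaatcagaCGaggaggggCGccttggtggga
Ctnnd2: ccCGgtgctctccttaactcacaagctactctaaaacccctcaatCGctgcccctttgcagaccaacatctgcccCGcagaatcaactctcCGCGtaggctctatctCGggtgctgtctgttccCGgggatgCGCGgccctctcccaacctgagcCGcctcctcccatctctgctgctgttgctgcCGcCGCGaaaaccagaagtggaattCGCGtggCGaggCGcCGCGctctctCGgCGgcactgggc
Cdh15: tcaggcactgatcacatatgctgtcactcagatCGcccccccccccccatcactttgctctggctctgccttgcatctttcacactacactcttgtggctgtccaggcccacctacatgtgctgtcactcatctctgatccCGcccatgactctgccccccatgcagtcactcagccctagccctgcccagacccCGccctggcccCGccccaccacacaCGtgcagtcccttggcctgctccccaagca

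The windows hold 35 CG in Ctnnb1, 26 in Ctnnd1, 21 in Ctnnd2 and 5 in Cdh15. Cdh15 lies at the low end of the members below background and does not stand for them. A window that ends at the outermost annotated start of the gene was at hand for 12 of the 78 members. The 4 of these above background in a cell, the 3 catenins above and Ctnnbl1, held 18 to 35 CG with a median of 23.5. The 8 below background in both held 0 to 36 with a median of 16, and the highest count, 36, was that of Ctnna3, which was below background. Over all named genes with such a window the median was 17 for 3239 genes above background in a cell and 6 for 5076 genes below it in both. The medians of the members lay in the same order, but their ranges overlapped, and 12 windows are too few to read more. Ctnnbip1, with 24 CG, counts among the 8 although its other probe set was above the limit at E12.5. The letters CAGGTG, a site read by Snail and Zeb repressors, searched on both strands, were in 0 of the 12 windows and in 17.2% of all 19827, which says only that the letters are not in these windows.

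Celsr1 had the highest computed ratio of the called members, of which Fat1, Cdh19 and Pcdhgc4 have lower bounds only. It encodes a giant cadherin that crosses the membrane several times and carries planar polarity between epithelial cells. Its only probe set had 277 at E12.5, just above the limit, and 4284 at P0, 15.4-fold higher. Celsr2, its relative, had 1696 at E12.5 and 824 at P0, 2.06-fold higher at E12.5, while a second probe set gave 16.8 and 348, with the P0 value just above its limit of 344 and the opposite sign. Celsr3, a gene of neurons and axon tracts, was below background with 12.2 and 32.5.

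Fat1, a giant cadherin of the apical junction that acts on actin, had 161 at E12.5 and 1940 at P0, at least 7.99-fold higher at P0 from its only probe set. Fat2 and Fat3 were below background in both cells. Fat4, the partner of Dchs1 in growth control, was below it too, with 45.6 and 145 on one probe set and 9.62 and 261 on the other. Fat1 and Celsr1 were both higher at P0, and neither has a further probe set to set beside its value.

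The protocadherins, the largest group, were below background with a single exception. Pcdhb genes encode the clustered beta protocadherins, each a separate exon on chromosome 18. All 28 probe sets of 22 Pcdhb genes were below the limit, with signals from 1.78 to 122 (median 16.6) at E12.5 and from 1.95 to 58.8 (median 5.74) at P0. The alpha cluster has no member here, because its 6 probe sets carry the names of several Pcdha genes, and they read at most 115 and 64.8, also below the limits. The exception was Pcdhgc4, a gamma protocadherin of the C type, with 2860 at E12.5 and 4.30 at P0, at least 8.32-fold higher at E12.5. Gamma protocadherin transcripts share their last exons, and whether its only probe set reads the shared or the own part was not tested.

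Outside the clusters, all 33 probe sets of 12 genes were below background, among them Pcdh1, Pcdh7 to Pcdh10 and Pcdh17 to Pcdh20, delta protocadherins known from zones of the developing brain, and Pcdh15 of hair cell and photoreceptor links. Their signals ran from 2.18 to 102 at E12.5 and from 1.16 to 188 at P0. The 14 probe sets of 6 desmocollin and desmoglein genes reached 108 at E12.5 and 64.7 at P0, so no desmosomal cadherin was above background. Of the 33 members on chromosome 18, which holds the protocadherin clusters and the desmosomal cadherins, Cdh2, Ctnna1 and Pcdhgc4 were above the limit at E12.5, and Cdh2 and Ctnna1 at P0.

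Compared gene by gene, 4 members were called higher at P0 and 1 at E12.5. The 4 were Celsr1, Fat1, Cdh19 and Ctnnd2, or 5.13% of the 78 members against 9.39% of all named genes, and the 1 was Pcdhgc4, or 1.28% against 7.34%. Neither share exceeded the background. Of the 5 genes, 4 have 1 probe set, and the second of Ctnnd2 was below background, so no call had a further probe set above the limit. When the arrays were scaled to their hybridisation spike-ins, which moved the median log2 ratio of all shared genes from 0.01 to -0.85, the calls were 2 at P0 (Celsr1 and Fat1) and 5 at E12.5 (Cdh4, Cdh6, Ctnnal1, Ctnnd1 and Pcdhgc4). The split between the cells thus depended on the scaling. The call rule also was not even between the cells, because the limit was lower at E12.5 than at P0. A gene above its limit in 1 cell alone therefore needed a smaller signal for a call at P0 than at E12.5. Cdh4, with 1349 at E12.5, fell short of a call, while Iqgap1, from the partner lists below, was called with 979 at P0. With limits at the 95th percentile, where the E12.5 limit was the higher, the calls were 5 at P0 and 2 at E12.5.

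Of the 11 members above background in both cells, 9 (81.8%) differed by less than 4-fold, near the 82.2% of all 3423 named genes above it in both. For 4 (36.4%, against 46.7% of all), namely Cdh2, Cdh3, Ctnna1 and Ctnnb1, the log2 ratio was under the SD of 0.83 between probe sets of a gene. These shares are no result about the members. Scaled to spike-ins, all 4 ratios exceeded that SD, with log2 values of -1.33, -1.07, -1.35 and -1.002. With the mean over probe sets Cdh2 was at -2.01, a call at E12.5, and Ctnna1 turned to 1.83. The signal was lower at P0 for 8 of the 11 (72.7%, against 49.6% of all) and higher for 3. These directions also moved with the processing. The mean over probe sets turned Celsr2 (1.14), Ctnna1 and Ctnnd1 (0.76) upward and Cdh11 (-1.10) downward. That mean takes in signals below background as they are. The averaged signals of Celsr2 and Ctnna1 at E12.5 and of Cdh11 at P0 fell under the limits and were raised to them. The turns of Celsr2, Ctnna1 and Cdh11 thus rest on signals below background and show no reversal. Quantile normalisation turned Ctnnb1 (0.28) upward. The median log2 ratio of the 17 members above background in a cell was -0.31, against 0.03 over the 7318 named genes above it in a cell.

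**Figure D3:**
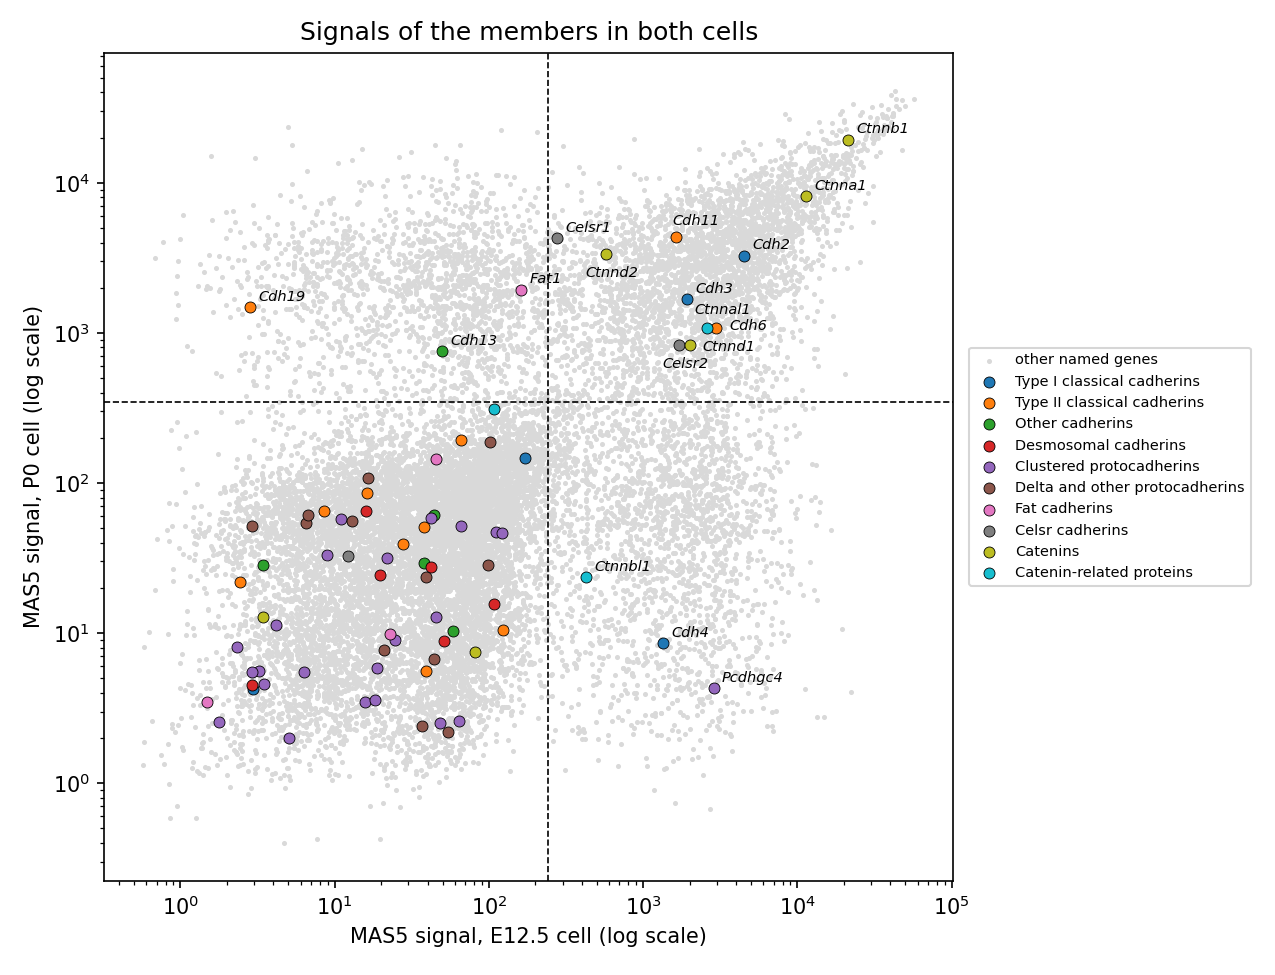
MAS5 signal (arbitrary units) of each gene at E12.5 (horizontal) and at P0 (vertical), both log axes, with members coloured by family, other named genes in grey and the background limits dashed. Ctnnb1, Ctnna1, Cdh2 and Cdh3 lie near the diagonal of the upper right field, Celsr1 stands at the left edge of that field, and most protocadherins fill the lower left field.

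Some further probe sets disagreed in sign, read after signals were raised to the limits. Of 8 members above background with a further probe set also above it in a cell, 4 (Celsr2, Ctnna1, Ctnnb1 and Ctnnd1) had at least 1 of opposite sign, or 50.0%, against 27.4% of 2663 such genes over the array. Counted by further probe set above the limit, 4 of 12 (33.3%) had the opposite sign, against 23.1% of 3981 over the array. No test was made of these differences. The further probe set of Cdh11 gave no direction. Cdh2, Cdh13 and Ctnnal1 had the same sign on every probe set above the limit.

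The genes that work with these families were mixed in direction. To read the counts of these lists, 30.6% of all named genes were above background at E12.5, 28.4% at P0 and 18.8% in both. Calls over all named genes were 9.39% at P0 and 7.34% at E12.5. Among other desmosome and catenin relatives (8 measured), 3 were above background at E12.5 and 2 at P0. Arvcf, a p120 relative, had 482 at E12.5 and 3088 at P0, 6.40-fold higher at P0, and Pkp4, another p120 relative, had 10397 and 21.1, at least 30.2-fold higher at E12.5. Plakoglobin (Jup), which can replace beta-catenin at cadherin tails, had 11.7 and 937, at least 3.86-fold higher at P0, and desmoplakin (Dsp) was below background. Neither Arvcf nor Pkp4 had a further probe set above the limit in its brighter cell.

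Of 17 genes that tie cadherins to actin and to nectin junctions, 9 were above background in each cell and 5 in both, with 4 called higher at P0 and 2 at E12.5. Vinculin (Vcl, 890 and 1198), the nectin gene Nectin2 (3453 and 2402) and Tjp1, which encodes ZO-1 (2687 and 4359), differed by less than 2-fold. Nectin3 had 5794 at E12.5 and 1739 at P0, 3.33-fold higher at E12.5, and 3 of its 5 further probe sets were above the limit there, all 3 of them at least 4-fold higher at E12.5. Afdn, encoding afadin, which binds nectins, had 8693 at E12.5 and 9.63 at P0, at least 25.3-fold higher at E12.5, and the LIM protein gene Ajuba was at least 8.21-fold higher there. Limd1, a relative of Ajuba, had 184 and 7182, at least 29.6-fold higher at P0, with its second probe set also called. Magi1 (at least 5.90-fold), Actn4 (4.42-fold) and Iqgap1 (at least 4.03-fold) were the others higher at P0. No further probe set of Magi1 (of 4) or Afdn (of 1) was above the limit in the brighter cell.

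Among other genes of the cadherin superfamily, 2 of 11 were above background at E12.5 and 1 at P0. Clstn1, a calsyntenin of transport vesicles, had 5703 and 2647, and Dchs1, the partner of Fat4, had 861 at E12.5 and 12.6 at P0, at least 2.50-fold higher at E12.5. Of 11 sheddase, phosphatase and traffic genes, 8 and 7 were above background. Adam10, the protease that cuts N-cadherin at the surface, had 9070 at E12.5 and 11343 at P0, and the phosphatase gene Ptprf had 5366 and 4802. Cbll1, encoding the E-cadherin ubiquitin ligase Hakai, was at least 14.3-fold higher at P0, with 67.5 and 3474, and was the only call of that list, with its 1 further probe set below the limit at P0.

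Of 11 planar polarity partners of Celsr proteins, 4 were above background at E12.5 and 5 at P0. Fzd3, a Frizzled receptor of planar polarity, had 1878 at E12.5 and 8995 at P0, 4.79-fold higher at P0, with 0 of 5 further probe sets above the limit at P0. Vangl2 (464 and 583) and Dvl1 (3573 and 2658) differed by less than 2-fold. Of 17 genes of beta-catenin breakdown and its nuclear partners, 10 and 11 were above background. Apc (1992 and 1834), Csnk1a1 (5446 and 5897), Pygo2 (2888 and 2911) and Chd8 (4481 and 4990) were nearly equal, while Fbxw11 (42.1 and 9502, at least 39.1-fold), Gsk3b (7.62 and 6170, at least 25.4-fold) and Bcl9 (766 and 4704, 6.14-fold) were higher at P0. Of their further probe sets, 1 of 4 for Fbxw11 was above the P0 limit and also called, against 0 of 5 for Gsk3b and 0 of 1 for Bcl9. Tcf7l1, a TCF factor that mostly represses, had 3452 and 809 and was 4.27-fold higher at E12.5. Axin2 and Lef1, targets of Wnt signalling, were below background in both cells.

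Of 7 genes for repressors of cadherin genes, 2 were above background in each cell. Zeb1 had 1179 at E12.5 and 398 at P0, Zeb2 had 28.2 and 1990, at least 8.19-fold higher at P0 with 0 of 4 further probe sets above the limit there, and Tcf3 had 4081 and 181, at least 11.9-fold higher at E12.5 with both further probe sets called too. Snai1, Snai2, Twist1 and Twist2 were below background in both. Their target Cdh1 was below it as well, as given above.

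**Figure D4:**
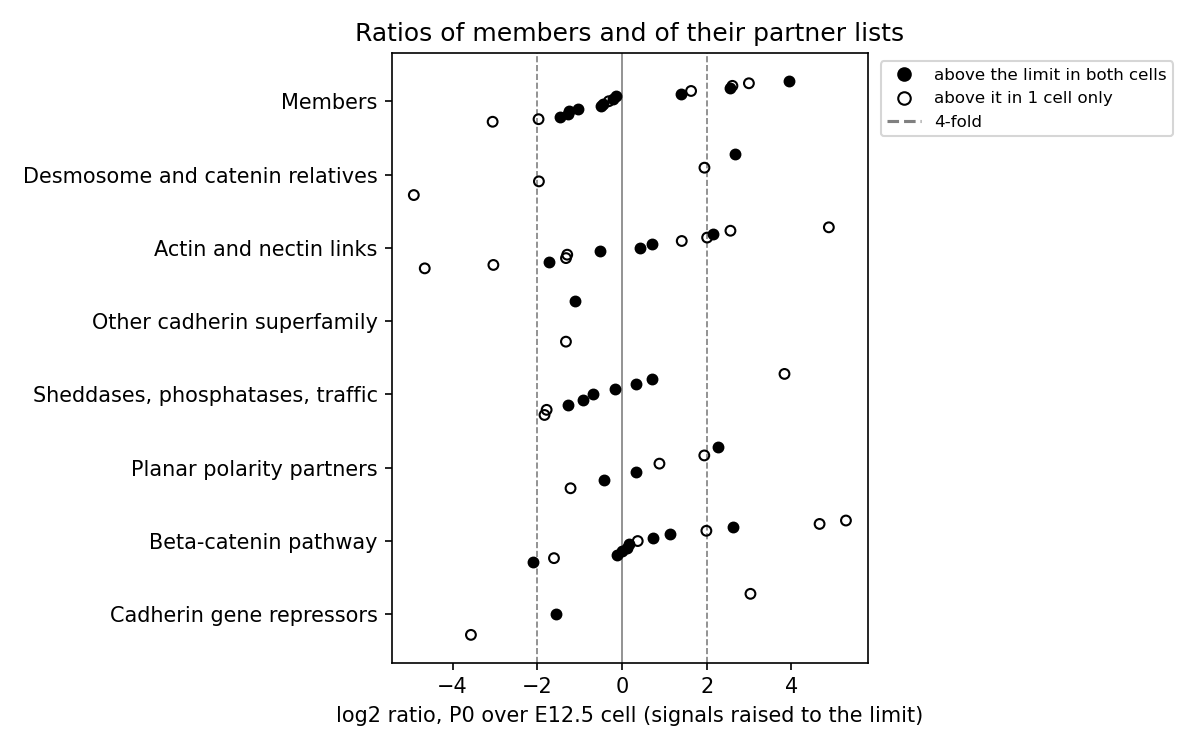
Log2 ratio of P0 over E12.5 (horizontal axis, signals raised to the limit) of the members and partner genes above background in at least 1 cell, 1 dot per gene, filled where both cells were above the limit and open where 1 was, with dashed lines at 4-fold. Members run from -3.06 (Pcdhgc4) to 3.95 (Celsr1), and the partner lists spread to both sides of 0 except the other cadherin superfamily genes, whose 2 dots are negative.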

How the data were processed

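The deposited table holds 1 MAS5 signal intensity per probe set and cell, which the authors computed from Affymetrix mouse arrays, per the submitters' processing notes. RNA of each cell was reverse transcribed from oligo dT and amplified by PCR, per the labels' protocols, which favours 3′ ends and can lose a transcript, so being below background is not absence. The MAS5 version is not given in the sources used here. The mean signal without 2% at each end was 500.0 in both arrays.

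Genes were named from the platform annotation, updated by gene identifier to RefSeq (GRCm38.p6) for 34754 of 34958 probe sets. The 12 promoter windows come from RefSeq. With 1 cell per age no test was made. Members, lists, limits and named genes follow rules chosen with earlier results of these data known. Members above background are given with values in both cells. Others are given by counts and ranges, and partner lists by counts, calls and bright members. Calling was run on simulated arrays with equal limits, large changes in bright genes only, and less noise than the spread between probe sets here. That setting is easier than these data, so it checks the code and not the error of the calls. Python 3.11.15, pandas 2.3.3 and matplotlib 3.10.9 were used. Alternatives covered the limit, scaling, probe set choice, fold, pseudocount and filter.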

Additional observations from a re-analysis of the deposited data

How the results depend on the processing

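Counts of members above background kept within 1.5 times of 14 under every alternative except the mean over probe sets, which gave 8 at P0. Calls were few and moved more. At E12.5, 1 call became 2 under quantile normalisation or a limit at the 95th percentile, 3 with the limit from bacterial controls, a pseudocount of 100 or the mean over probe sets, 4 without probe sets ending in _x_at, _s_at or _a_at, 5 when scaled to spike-ins, and 6 at a fold of 2. At P0, 4 calls became 2 when scaled to spike-ins and 1 at a fold of 8. Without a filter 16 were called in each. The median log2 ratio was -1.18 when scaled to spike-ins, which moved the median of all shared genes from 0.01 to -0.85. Pcdhgc4 and Celsr1 were called under every alternative run, Fat1 under all but the fold of 8, and Cdh19 also lost its call when scaled to spike-ins (1.74). Ctnnd2 lost its call at the fold of 8, when scaled to spike-ins (1.69) and with the mean over probe sets (0.50, where both signals were below the limits). The alternative without these probe set types gives no value for Ctnnb1. No called member reversed. The choice of the probe set with the highest single signal, added after the data were seen, gave 1 and 5 calls. Signals near a limit, as for Celsr1 at E12.5 and Ctnnbl1, bound what can be read. No paired analysis was possible because each age is 1 cell.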
